A study of Homo sapiens and Mus musculus with 18 samples.

Results

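The 10 genes of the Notch segmentation clock described here are DLL1 and DLL3 (ligands), NOTCH1 (receptor), LFNG (the fringe enzyme of the clock), HES7, HES1, HEY1 and NRARP (targets and feedback regulators) and MESP2 and RIPPLY2 (genes of the determination front). They were taken by name, with the mouse genes of the same name, from the 44910 human and 29720 mouse genes counted, and all 10 were present in the counts of both species. RNA-seq covered 10 human and 8 mouse samples, with 2 biological replicates in each of 9 groups. Human groups were naïve H9 ESCs, reset chemically and grown on mouse feeder cells that were removed over passaging, H9 ESCs in the primed state, RUES2-GLR ESCs in the primed state, and RA-gastruloids, early at 24 h and late at 120 h. RA-gastruloids are aggregates of the RUES2-GLR reporter line that received the WNT agonist CHIR99021 and retinoic acid (RA), and later Matrigel. Mouse groups came from E14 ESCs: naïve ESCs, epiblast-like cells (EpiLCs, primed by activin A and FGF), and gastruloids, early at 72 h and late after a further 72 h. The mouse aggregates were made from naïve ESCs and received CHIR99021 but no RA. The naïve mouse ESCs themselves were kept in CHIR99021, PD0325901 and LIF, and the naïve H9 ESCs in PXGL medium (with PD0325901, XAV939 and LIF). No library was made between the early and late hours, the replicates of a stage were collected together, and each human gastruloid group represents a single cell line. Each gastruloid library pooled aggregates and therefore averages over cells at every phase of an oscillation.

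In the presomitic mesoderm, the tissue from which vertebrae and trunk muscle arise, Notch signalling switches on and off in travelling waves. A Delta ligand on a neighbouring cell triggers cleavage of the Notch receptor, whose intracellular part joins RBPJ on DNA and activates HES genes. HES proteins repress their own promoters, which together with fringe sugar modification of the receptor makes the cycle, and at the determination front MESP2 and RIPPLY2 fix each wave as a somite boundary. HES7 is the repressor most specific to this tissue, and mutations in HES7, LFNG, DLL3, MESP2 and RIPPLY2 are known from human disorders of vertebral segmentation.

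Promoters of the 4 genes below are shown because HES7 had the largest change among the human members, HES1 was lower at the step where HES7 rose, MESP2 marks the front, and mouse Hes7 was near zero throughout. Each window runs from 250 bases before to 50 bases after an annotated start. For MESP2 this start lies within the counted gene, which begins at chr15:89760591. For the other genes shown it is the gene start. Human windows are from RefSeq on GRCh38.p14, in which 7 of the 10 members had an entry (not DLL1, DLL3 or HEY1), and the mouse window was read from GRCm39 at the GENCODE gene start. Capitals mark matches on either strand to the RBPJ core TGGGAA, the N-box CACNAG bound by HES proteins, and the T-box core AGGTGT bound by factors such as TBX6.
HES7 (chr17:8124057-8124356, minus strand): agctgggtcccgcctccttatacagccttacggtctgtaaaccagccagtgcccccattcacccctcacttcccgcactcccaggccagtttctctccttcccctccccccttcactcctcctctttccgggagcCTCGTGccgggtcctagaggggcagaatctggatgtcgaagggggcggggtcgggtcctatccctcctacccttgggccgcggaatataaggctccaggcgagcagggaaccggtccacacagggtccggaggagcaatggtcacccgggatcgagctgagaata
HES1 (chr3:194135898-194136197, plus strand): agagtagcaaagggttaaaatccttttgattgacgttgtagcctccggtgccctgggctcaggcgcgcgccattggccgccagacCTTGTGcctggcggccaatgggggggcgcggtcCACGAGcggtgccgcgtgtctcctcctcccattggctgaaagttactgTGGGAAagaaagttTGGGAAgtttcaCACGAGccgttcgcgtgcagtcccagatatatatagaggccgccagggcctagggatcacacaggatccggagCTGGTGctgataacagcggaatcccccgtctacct
MESP2 (chr15:89776082-89776381, plus strand): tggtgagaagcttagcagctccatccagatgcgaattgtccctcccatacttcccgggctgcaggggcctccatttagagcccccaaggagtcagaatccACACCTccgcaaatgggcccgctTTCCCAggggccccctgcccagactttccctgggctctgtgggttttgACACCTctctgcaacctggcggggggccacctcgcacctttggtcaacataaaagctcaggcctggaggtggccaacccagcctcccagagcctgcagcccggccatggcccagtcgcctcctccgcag
Mouse Hes7 (chr11:69010980-69011279, plus strand): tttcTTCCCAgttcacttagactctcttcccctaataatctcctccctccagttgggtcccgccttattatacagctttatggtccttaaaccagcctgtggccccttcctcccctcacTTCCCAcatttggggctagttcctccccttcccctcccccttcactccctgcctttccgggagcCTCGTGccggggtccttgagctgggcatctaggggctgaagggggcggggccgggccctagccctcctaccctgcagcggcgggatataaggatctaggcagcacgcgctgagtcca

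The HES1 window held 2 RBPJ cores, starting 84 and 70 bases before the gene start, and 4 N-boxes. The MESP2 window held 1 RBPJ core between 2 T-box cores. The HES7 window held 1 N-box and the mouse Hes7 window 1 N-box and 2 RBPJ cores, and none of the marked matches overlapped. Of all 35116 human windows of the same length, 24.0% held the RBPJ core, 38.0% the N-box and 11.4% the T-box core. In 21770 windows at mouse protein-coding genes the shares were 26.6%, 43.2% and 15.5%. E-boxes (CANNTG) were in 68.7% of human windows and were not marked. Human and mouse HES7 windows were identical at 67.7% of 300 aligned bases, against 48.0% for HES1 and 53.0% for MESP2 aligned to the same mouse window.

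Sequencing depth differed within and between groups, from 3681739 to 38771193 total counts in human and from 6487157 to 20052505 in mouse. Levels are counts scaled to the size of the library (CPM) after TMM scaling, and a floor of 3 counts per library corresponded to at most 0.815 CPM in human and 0.462 CPM in mouse before that scaling. The 5 genes with most counts held 15.6% and 16.5% of the counts of the primed RUES2-GLR libraries, all of them mitochondrial, against 2.75% to 5.05% in the other human libraries. The human presomitic list (TBX6, MSGN1, MESP1, WNT3A) summed to 784 and 816 CPM in early RA-gastruloids, with 4 of 4 markers above the floor, and to at most 5.68 CPM in the pluripotent cells. In late RA-gastruloids it summed to 96.4 and 71.3 CPM, most of it WNT3A (81.5 ± 17.1 CPM, SD, n = 2), while TBX6 was at 1.15 CPM. The mouse list summed to at most 1.78 CPM in any library, and Msgn1, a defining gene of presomitic mesoderm, had 0 counts in all 4 gastruloid libraries. The early mouse gastruloids thus carried primitive streak markers (257 and 256 summed CPM) while their presomitic markers were near the floor. Their pluripotent list (Pou5f1, Nanog, Sox2) summed to 1768 and 1770 CPM, against 2798 and 2813 CPM in naïve ESCs and 1175 and 1234 CPM in EpiLCs. The human pluripotent list summed to 347 and 337 CPM in early RA-gastruloids.

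**Figure D1:**
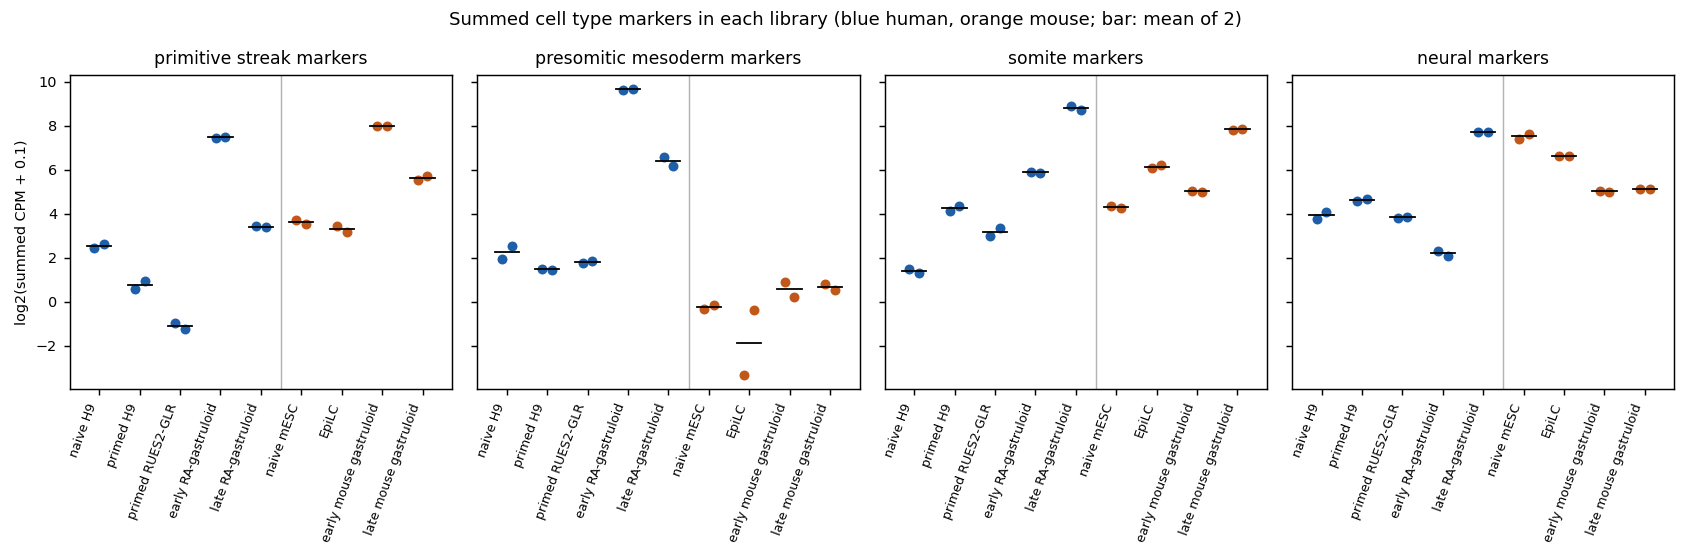
Summed CPM of 4 marker lists in each library on a log2 scale with 0.1 added, with 1 panel per list, 2 points per group and a bar at their mean. The presomitic list reached 784 and 816 CPM in early RA-gastruloids and stayed at or below 1.78 CPM in all 8 mouse libraries, while the somite list was highest in late gastruloids of both species among the groups of that species.

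HES7 encodes the cyclic repressor at the core of the clock (ENSG00000179111, chr17:8120592-8124106, GRCh38). HES7 was at 1.36 and 1.66 CPM in naïve H9 and 0.489 and 0.191 CPM in primed H9. Primed RUES2-GLR cells had 0.573 and 0.637 CPM. It was at 121 and 125 CPM in early RA-gastruloids and at 3.98 and 3.67 CPM in late ones. Both early libraries thus stood far above the other 8, and the late libraries above all 6 pluripotent ones. From primed RUES2-GLR cells to early RA-gastruloids HES7 rose by 7.69 ± 0.25 (log2 fold change ± SE, adjusted p = 1.07e-21, the quasi-likelihood test of edgeR, Benjamini-Hochberg adjusted, as for every adjusted p here). The raw counts behind this were 7 and 2 in the primed libraries and 1261 and 1237 in the early ones. To the late stage it fell by 4.99 on the log2 scale (SE 0.16, adjusted p = 1.38e-21), a ratio of mean CPM of 32.2. The presomitic markers given above moved with HES7 at both steps, and their part in its values was not tested. In bulk RNA, fewer cells of a type and less RNA per cell cannot be told apart, for HES7 or any other gene here.

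Mouse Hes7 had 5 counts in all over the 8 libraries and was not tested. Its counts were 0 and 0 in naïve ESCs, 0 and 2 in EpiLCs, 1 and 0 in early gastruloids, and 2 and 0 in late gastruloids. Every library was below the floor of 3 counts, so no fold is given and no change was detectable at this depth. Its exons overlap those of an antisense gene, 9130213A22Rik, which had 2 counts, and the default counting did not use the strand.

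DLL1 and DLL3 are the Delta ligands of the clock, DLL1 an activating ligand and DLL3 a divergent one that acts inside the cell. DLL1 (chr6:170282206-170306565) was at 17.9 and 17.2 CPM in primed RUES2-GLR cells, 435 and 431 CPM in early and 60.6 and 42.1 CPM in late RA-gastruloids. DLL3 (chr19:39498895-39508481) was at 16.7 and 20.4 CPM, 596 and 597 CPM, and 37.2 and 27.0 CPM in the same groups. Neither gene overlapped between any of these 3 groups, and for both the early libraries were the highest of all 10. DLL1 rose by 4.62 ± 0.15 on the log2 scale (adjusted p = 1.54e-21) and DLL3 by 5.06 ± 0.17 (adjusted p = 1.72e-21). By the late stage DLL1 fell by 3.06 (SE 0.13, adjusted p = 7.79e-19) and DLL3 fell by 4.19 (SE 0.15, adjusted p = 9.94e-21). In the pluripotent cells DLL3 was lower in primed than in naïve H9, by -1.20 ± 0.14 log2 (39.7 and 52.1 CPM against 17.3 and 21.9 CPM, adjusted p = 6.62e-09). Of the DLL1 exons, 370 bases overlap FAM120B on the other strand, a gene with 4672 counts over the 10 libraries against the 4529 of DLL1 in a single early library.

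In mouse, Dll1 and Dll3 were nearly silent in naïve ESCs and present in EpiLCs. Dll1 was at 0.279 and 0.449 CPM in naïve ESCs, 19.8 and 23.0 CPM in EpiLCs, 8.99 and 8.88 CPM in early and 6.54 and 6.85 CPM in late gastruloids. Dll3 was at 0.419 and 0.449 CPM, 23.1 and 21.1 CPM, 19.5 and 16.8 CPM, and 3.97 and 3.57 CPM. The highest mouse group for both ligands was therefore the EpiLC, an adherent culture, not a gastruloid. Against naïve ESCs, early gastruloids were higher by 4.51 ± 0.34 log2 for Dll1 (adjusted p = 1.54e-17) and 5.36 ± 0.28 for Dll3 (adjusted p = 2.04e-24). The naïve counts behind these were 2 and 5 for Dll1 and 3 and 5 for Dll3, near the floor of 3, so the size of both rises is uncertain. Against EpiLCs, Dll1 was lower by -1.28 ± 0.14 (adjusted p = 4.16e-12) and Dll3 differed by -0.25 ± 0.12 (adjusted p = 0.0587). In the late libraries Dll3 fell by 2.27 (SE 0.18, adjusted p = 9.52e-17), and Dll1 differed by -0.42 ± 0.19 (adjusted p = 0.0359), short of the log2 threshold of 1.

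**Figure D2:**
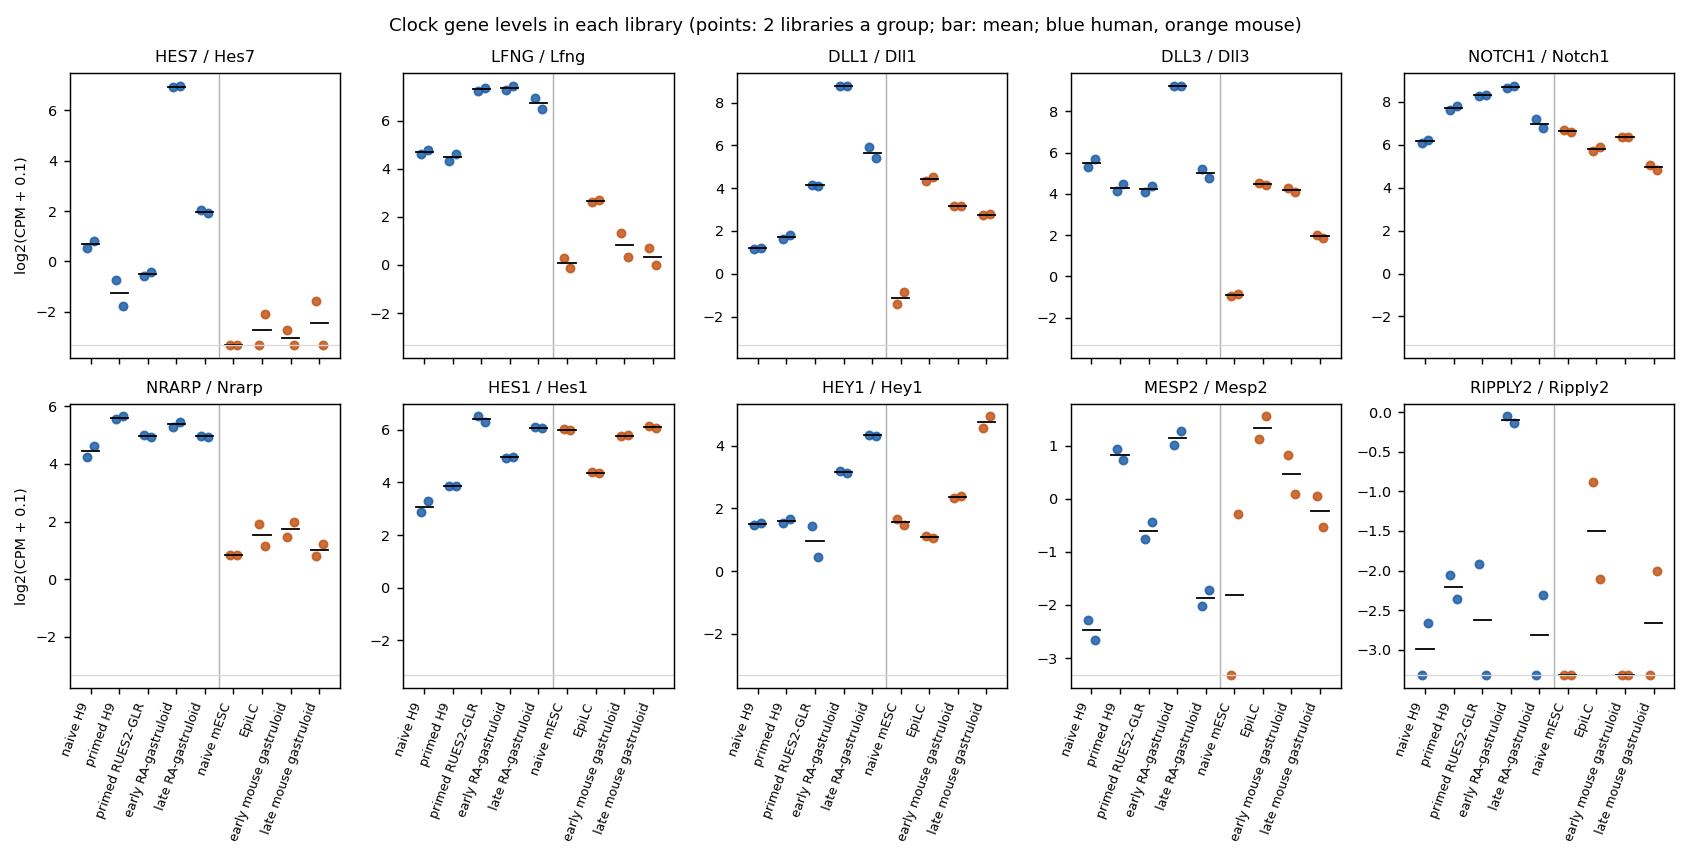
Level of each clock gene in every library, as log2(CPM + 0.1), with 1 panel per gene, 5 human groups at the left (blue) and 4 mouse groups at the right (orange), 2 points per group and a bar at their mean. HES7, DLL1 and DLL3 peak in early RA-gastruloids at 123, 433 and 597 mean CPM, while mouse Hes7 lies at or near zero in all 8 libraries.

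Within a library, levels per length (TPM) compare the ligands with each other. In early RA-gastruloids DLL3 was at 889 ± 3.29 TPM and DLL1 at 442 ± 2.03 TPM (SD, n = 2), and these made up 65.4% and 32.5% of the summed TPM of DLL1, DLL3, DLL4, JAG1 and JAG2. JAG1, a ligand of the other Notch ligand family, held 61.7% ± 2.89 of that sum in primed RUES2-GLR cells and 1.83% ± 0.0825 in early RA-gastruloids. In early mouse gastruloids the sum was spread over Jag2 (33.1%), Dll3 (29.4%), Jag1 (27.5%) and Dll1 (9.80%). These shares are descriptions of 2 libraries each and carry no test.

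**Figure D3:**
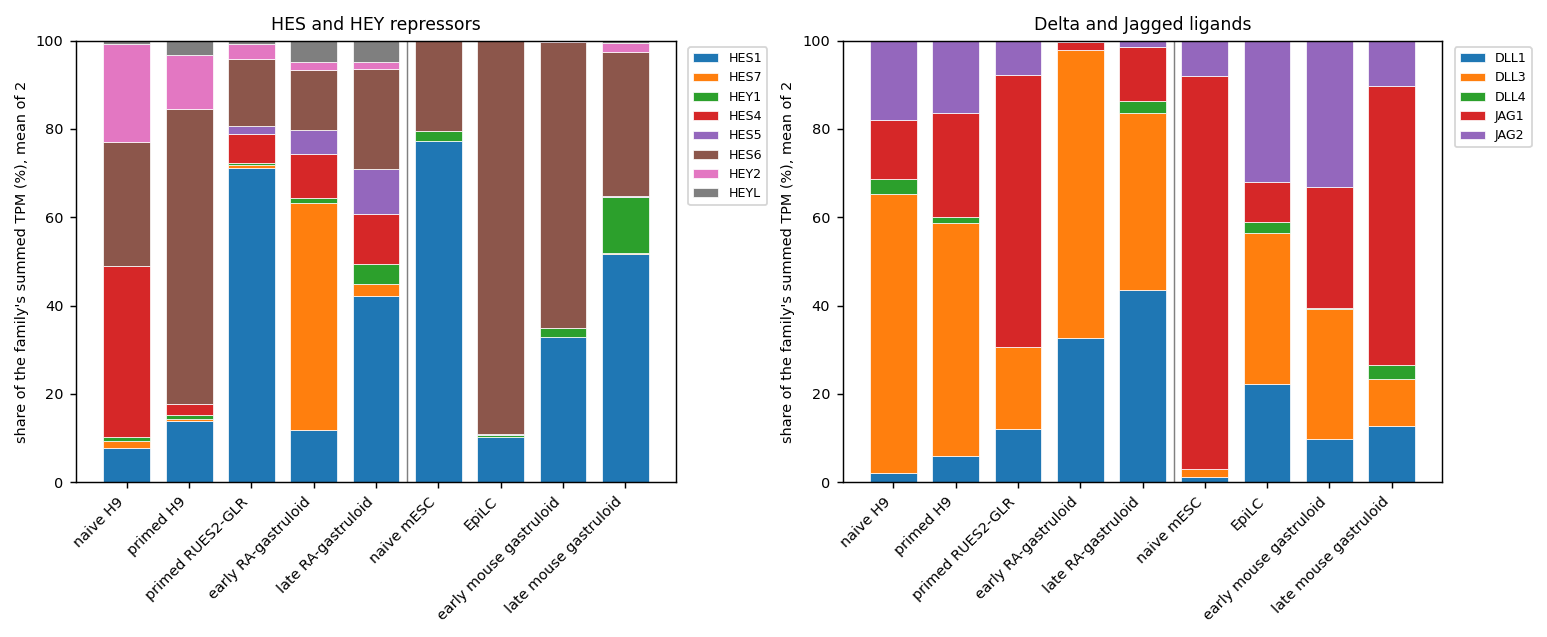
Share of each gene in the summed TPM of the HES and HEY repressors (left) and of the Delta and Jagged ligands (right), in percent, as the mean of 2 libraries for each of 9 groups, human at the left of the line and mouse at the right. HES7 takes 51.4% of the repressor sum in early RA-gastruloids and at most 2.61% in any other group, and HES4 was not in the mouse counts.

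NOTCH1 (chr9:136494433-136546048), the receptor of this set, was present in every library of both species. It was at 68.9 and 75.3 CPM in naïve H9, 198 and 223 CPM in primed H9, 309 and 325 CPM in the RUES2-GLR line, 398 and 427 CPM in early and 146 and 111 CPM in late RA-gastruloids. Early RA-gastruloids were again highest, but with TMM scaling NOTCH1 differed from primed RUES2-GLR cells by only 0.38 ± 0.11 log2 (adjusted p = 0.00501). With libraries scaled by counts per base it was called higher at this step. From naïve to primed H9 it rose by 1.55 ± 0.12 (adjusted p = 2.96e-13), and from early to late it fell by 1.67 (SE 0.12, adjusted p = 1.44e-13). Mouse Notch1 was at 103 and 98.5 CPM in naïve ESCs, 52.9 and 59.3 CPM in EpiLCs, 82.3 and 81.2 CPM in early and 33.7 and 28.0 CPM in late gastruloids, and its late libraries were lowest. It fell from early to late by 1.39 (SE 0.09, adjusted p = 1.26e-21). Among the 4 receptors, NOTCH1 held 54.2% of the summed TPM in early RA-gastruloids and 18.6% in late ones, where NOTCH3 held 54.2%.

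LFNG (chr7:2512529-2529177), which adds the sugar that tunes how the receptor reads its ligands, did not follow HES7. LFNG was at 24.2 and 27.7 CPM in naïve H9 and 20.1 and 24.4 CPM in primed H9. It was at 152 and 165 CPM in primed RUES2-GLR cells. It was at 155 and 174 CPM in early and 124 and 90.7 CPM in late RA-gastruloids. The step therefore lay between the primed lines, 2.81 ± 0.14 log2 higher in RUES2-GLR (adjusted p = 7.11e-17), and the primed RUES2-GLR and early groups overlapped in CPM (0.06 ± 0.13, adjusted p = 0.737). In TPM they did not overlap, at 97.0 and 101 in primed RUES2-GLR cells against 176 and 197 in early RA-gastruloids, and with libraries scaled by counts per base the difference was 0.91 log2 (adjusted p = 5.35e-09), under the fold threshold. Late libraries differed by -0.61 ± 0.13 (adjusted p = 0.000165), under the fold threshold. Mouse Lfng was at 1.12 and 0.807 CPM in naïve ESCs, 6.06 and 6.38 CPM in EpiLCs, 2.42 and 1.14 CPM in early and 1.52 and 0.894 CPM in late gastruloids. EpiLCs were highest, by 2.74 ± 0.36 log2 over naïve ESCs (adjusted p = 2.20e-09), and early gastruloids were below them by -1.69 ± 0.27 (adjusted p = 3.26e-07). The early gastruloids were called higher than naïve ESCs (1.04 ± 0.43, adjusted p = 0.0312), but without early replicate 1 the value was 0.29 (adjusted p = 0.714), and without naïve replicate 2 it was 0.78 (adjusted p = 0.269).

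HES1 is a broadly used Notch target that also oscillates in the presomitic mesoderm. HES1 (chr3:194136148-194138732) was at 7.21 and 9.69 CPM in naïve H9, 14.3 and 14.4 CPM in primed H9, 90.9 and 77.7 CPM in the RUES2-GLR line, 30.7 and 30.9 CPM in early and 68.5 and 66.4 CPM in late RA-gastruloids. Early RA-gastruloids, the group with most HES7, were lower in HES1 than the groups before and after. HES1 fell by 1.47 on the log2 scale (SE 0.13, adjusted p = 5.13e-11) from primed RUES2-GLR cells, a call that ends by counts per base (-0.62), and rose by 1.13 ± 0.13 to the late stage (adjusted p = 9.18e-09). On the TPM scale HES7 was at 255 ± 6.12 and HES1 at 58.3 ± 0.474 in early RA-gastruloids, and at 8.15 ± 0.283 and 131 ± 0.0782 in late ones, so the order of the repressors was inverted. Mouse Hes1 was at 64.6 and 62.8 CPM in naïve ESCs, 20.7 and 20.2 CPM in EpiLCs, 54.3 and 55.1 CPM in early and 71.4 and 66.6 CPM in late gastruloids. It was lower in EpiLCs than in naïve ESCs by -1.64 ± 0.09 log2 (adjusted p = 3.36e-23) and higher in early gastruloids than in EpiLCs by 1.42 ± 0.09 (adjusted p = 7.55e-21). In early mouse gastruloids Hes1 held 32.9% of the summed repressor TPM and Hes6, an inhibitor of HES1 activity, 64.9%.

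HEY1, a Notch target known from vessels and later somites, rose toward the late stage in both species. It was at 2.67 and 2.81 CPM in naïve H9, 2.80 and 3.05 CPM in primed H9, with 2.62 and 1.27 CPM for the primed RUES2-GLR line, then at 9.13 and 8.68 CPM in early and 20.3 and 19.8 CPM in late RA-gastruloids. It rose by 1.95 ± 0.27 log2 to the early stage (adjusted p = 2.39e-07) and by 1.17 ± 0.17 to the late stage (adjusted p = 1.27e-06). Mouse Hey1 was at 3.07 and 2.69 CPM in naïve ESCs, 2.07 and 1.97 CPM in EpiLCs, 4.89 and 5.19 CPM in early and 23.5 and 30.5 CPM in late gastruloids. Its late libraries were well above the other 6, with a rise of 2.42 ± 0.16 log2 (adjusted p = 6.07e-20). The summed endothelial markers KDR, CDH5, PECAM1 and TEK went from 137 and 142 CPM in primed RUES2-GLR cells down to 24.5 and 25.3 CPM in early RA-gastruloids, the step where HEY1 rose, and were at 67.3 and 55.4 CPM in late ones. Of the 4 markers KDR, CDH5 and PECAM1 had higher means in late than in early RA-gastruloids, and TEK was at 8.87 and then 7.29 mean CPM. In mouse the sum was at 149 and 147 CPM in early and 232 and 233 CPM in late gastruloids. There Kdr went from 0.934 to 132 and Cdh5 from 0.0494 to 48.3 mean CPM, Tek was at 21.0 and 22.4, and Pecam1 went the other way, from 126 to 29.8. Their part in the HEY1 values was not tested.

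NRARP, which destabilises the active Notch complex as negative feedback, had the smallest ratio of highest to lowest level among the members tested in each species. It was at 18.7 and 24.7 CPM in naïve H9, 46.5 and 50.0 CPM in primed H9, 32.1 and 30.3 CPM in the RUES2-GLR line, 38.5 and 44.0 CPM in early and 31.5 and 30.2 CPM in late RA-gastruloids. With TMM scaling its call was the rise from naïve to primed H9 (1.16 ± 0.13 log2, adjusted p = 2.07e-09), which without naïve replicate 1 came to 0.92, under the fold threshold. With libraries scaled by counts per base it was also called higher from primed RUES2-GLR cells to early RA-gastruloids. Mouse Nrarp was at 1.63 to 3.87 CPM in all 8 libraries and was called in no comparison, its largest difference being 0.89 ± 0.35 log2 between naïve ESCs and early gastruloids (adjusted p = 0.0218). Leaving out 1 library brought Nrarp past the threshold in 3 comparisons, at 1.12 from naïve ESCs to EpiLCs without EpiLC replicate 2, and, without early replicate 1, at 1.18 from naïve ESCs to early gastruloids and -1.02 from early to late.

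MESP2 and RIPPLY2, which act at the determination front, were at low counts in every group. MESP2 was at 1.92 and 2.32 CPM (20 and 23 counts) in early RA-gastruloids, 1.82 and 1.55 CPM in primed H9 cells, and 0.491 and 0.637 CPM in the primed RUES2-GLR line, with at most 3 counts in each naïve H9 and late library. Early RA-gastruloids were thus above the primed RUES2-GLR line but next to primed H9 cells. MESP2 was called higher in early RA-gastruloids than in primed RUES2-GLR cells (2.00 ± 0.53 log2, adjusted p = 0.00194). Without primed RUES2-GLR replicate 1 the adjusted p was 0.179. It was at least 9.40-fold lower in late than in early RA-gastruloids (adjusted p = 2.17e-06), and at least 10.2-fold higher in primed than in naïve H9 (adjusted p = 9.79e-08), both against the floor of 3 counts per library.

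RIPPLY2 had 9 and 8 counts in early RA-gastruloids and 0 to 4 counts in the other 8 human libraries. Against the floor its early level exceeded that of primed RUES2-GLR cells at least 1.39-fold (adjusted p = 0.0249), a call lost when any of the 4 libraries was left out. It was at least 3.71-fold lower in the late stage (adjusted p = 0.000739), a call lost without late replicate 1 (adjusted p = 0.0818). Of the RIPPLY2 exons, 730 bases overlap an unnamed antisense gene with 19 counts in all, and the default counting did not use the strand. How reads in the shared bases were assigned was not examined. Mouse Ripply2 had 6 counts in all and was not tested. Mouse Mesp2 had 14 and 43 counts in EpiLCs and 0 and 8 in naïve ESCs, a difference of 2.53 ± 0.55 log2 (adjusted p = 6.14e-05). With 34 and 11 counts it was called higher in early gastruloids than in naïve ESCs (1.67 ± 0.59 log2, adjusted p = 0.0118), and the adjusted p was 0.181 without naïve replicate 1 and 0.230 without early replicate 1.

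Over the set, all 10 human members passed the filter on low counts, and 8 of 10 mouse members did (not Hes7 and Ripply2). A gene was called at an adjusted p under 0.05 with a log2 fold change beyond 1. From primed RUES2-GLR cells to early RA-gastruloids 7 of 10 members were called, where 29.6% of the 18300 genes tested were called in either direction. Of these 6 were higher (HES7, DLL1, DLL3, HEY1, MESP2, RIPPLY2), against 12.0% of all genes, and HES1 was lower, against 17.6%. From early to late 8 of 10 were called, against 24.9% of all genes. Of these 6 were lower (HES7, DLL1, DLL3, NOTCH1, MESP2, RIPPLY2), against 13.2%, and HES1 and HEY1 were higher, against 11.8%. RIPPLY2 passed the filter only through the early libraries, where it is highest, so its calls are no support for the count. Without it 6 of 9 members were called in the former comparison, 5 of them higher, and 7 of 9 in the latter, 5 of them lower. The median log2 fold change of the members was 1.97 in the former comparison (1.95 without RIPPLY2), against 0.08 over all genes, and -2.37 in the latter (-1.67 without RIPPLY2), against 0.00. The comparisons share the early libraries, so their values are given side by side and not as support for each other.

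Between the human pluripotent groups the members were called at the following shares. From naïve to primed H9 5 of 10 were called (NOTCH1, NRARP and MESP2 higher, HES7 and DLL3 lower), against 47.8% of all genes. HES7 was lower in primed H9 by -2.45 ± 0.37 log2 (adjusted p = 7.02e-07). From primed H9 to primed RUES2-GLR 4 of 10 were called, against 29.3%, with LFNG, DLL1 and HES1 higher and MESP2 lower, the MESP2 call being lost without primed RUES2-GLR replicate 1 (-1.23, adjusted p = 0.348). There DLL1 differed by 2.43 ± 0.19 log2 and HES1 by 2.57 ± 0.13 (adjusted p = 1.69e-12 and 2.60e-16), and the cell line and the collection cannot be told apart.

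In mouse, 5 of the 8 tested members were called from naïve ESCs to EpiLCs (Lfng, Dll1, Dll3 and Mesp2 higher, Hes1 lower), against 29.8% of 15003 genes. From EpiLCs to early gastruloids 4 of 8 were called (Hes1 and Hey1 higher, Lfng and Dll1 lower), against 20.9%. From naïve ESCs, the cells aggregated, to early gastruloids 4 of 8 were called, all higher (Lfng, Dll1, Dll3, Mesp2), against 23.0%. From early to late gastruloids 3 of 8 were called (Hey1 higher, Dll3 and Notch1 lower), against 39.2%, so that this share was about that of all genes.

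**Figure D4:**
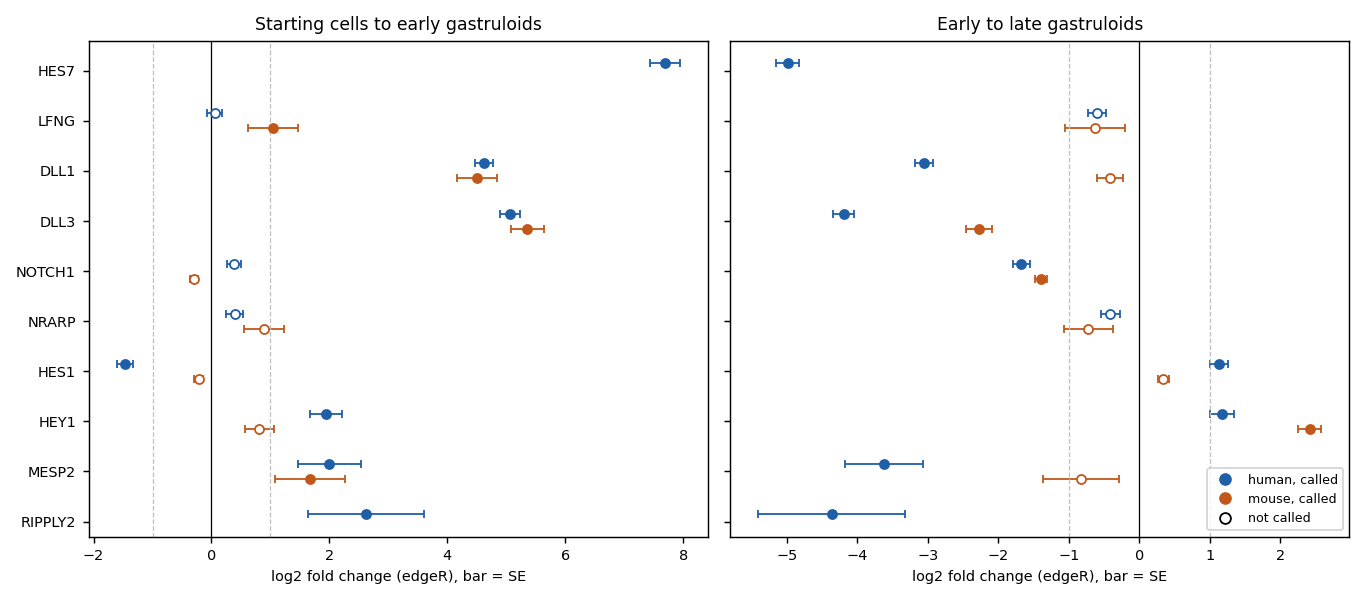
Log2 fold change of each tested member with its SE, human in blue and mouse in orange, from the starting cells to early gastruloids (left, primed RUES2-GLR in human and naïve ESCs in mouse) and from early to late gastruloids (right). Filled points were called and open points were not, dashed lines mark the fold threshold, and HES7 shows the largest human change in either panel, 7.69 and -4.99.

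The early to late change was compared between species in 1 fit of all 18 samples for the 8 members tested in both. It differed for 4 of 8, where 35.4% of 14006 matched genes differed. The fall of DLL1 was larger in human by -2.49 ± 0.23 log2 (adjusted p = 1.40e-11) and that of DLL3 by -1.77 ± 0.29 (adjusted p = 2.96e-06). For MESP2 the difference was -2.64 ± 0.93 (adjusted p = 0.0141), with a human late group at the floor, and the call was lost without late RA replicate 1 (adjusted p = 0.1002) or late mouse replicate 1 (adjusted p = 0.138). For HEY1, which rose more in mouse, it was -1.10 ± 0.24 (adjusted p = 0.000196), and -0.89 without late mouse replicate 2. NOTCH1 (-0.13 ± 0.15, adjusted p = 0.479), LFNG (0.18 ± 0.44, adjusted p = 0.745) and NRARP (0.45 ± 0.36, adjusted p = 0.284) did not pass, and HES1 (0.94 ± 0.15, adjusted p = 1.83e-06) stayed under the fold threshold. Species, RA, Matrigel and hours differ together and cannot be told apart.

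The other genes of the pathway are read against the shares of all genes given above for the same step and direction. Genes of these lists that passed the filter only through the group where they are high were kept. The counts are therefore descriptions and no support for an excess over all genes. The shares are those with TMM. By counts per base the median over all genes moved by 0.85 log2 from primed RUES2-GLR cells to early RA-gastruloids. There 83.7% of all called genes were higher, so list counts on that scaling are not read against the shares. Of 10 other ligands, receptors and fringes, 5 were called from primed RUES2-GLR cells to early RA-gastruloids, each of them lower, against 17.6% of all genes. By counts per base 2 were called lower and 0 higher (edgeR), so most of these calls depend on the scaling. The largest falls were DLK1, a non-canonical ligand, from 369 ± 60.7 to 6.28 ± 1.45 CPM, and JAG1, from 219 ± 1.20 to 59.2 ± 2.61 CPM (SD, n = 2). In late RA-gastruloids 3 were called, each higher, against 11.8%, led by DLL4, an endothelial ligand, from 0.341 ± 0.197 to 4.13 ± 1.22 CPM, and NOTCH2, from 107 ± 1.99 to 245 ± 9.22 CPM. Of 22 genes for processing and the nuclear complex, 4 were higher and 6 lower to the early stage, and 8 higher and 3 lower by counts per base, with MAML3, a co-activator of the complex, at 8.25 ± 0.846 and 57.6 ± 0.816 CPM. APH1B, of the gamma-secretase that cleaves Notch, was at 60.7 ± 2.96 and 8.58 ± 0.855 CPM. To the late stage 4 were higher and 1 lower, with DTX4 from 32.9 ± 3.37 to 224 ± 32.1 CPM and FURIN, which cleaves the receptor during its maturation, from 76.0 ± 4.59 to 35.0 ± 5.72 CPM.

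A further list held mainly other HES and HEY genes, and also BHLHE40 and BHLHE41, which belong to neither family. Of its 9 genes tested, 7 were called, each higher in early RA-gastruloids than in primed RUES2-GLR cells. The median log2 fold change of the 9 was 1.92 against 0.08 over all genes, with a share called higher of 12.0%. HES5, a neural Notch target, went from 1.41 ± 0.258 to 8.95 ± 0.525 CPM. In late RA-gastruloids 4 were called, each lower, against 13.2%, among them BHLHE40, from 159 ± 14.8 to 0.876 ± 0.347 CPM, and BHLHE41, which had 0 counts in both late libraries and was at least 65.4-fold lower. Among 18 WNT and FGF clock targets, 7 were higher and 3 lower in early RA-gastruloids, against 12.0% and 17.6% of all genes. By counts per base 12 were higher and 1 lower, with no share of all genes on that scaling to set beside them. LEF1 and SP5, targets of WNT signalling, rose from 2.73 ± 2.05 to 224 ± 4.65 CPM and from 9.26 ± 2.67 to 217 ± 0.382 CPM. Later, 4 were higher and 6 lower, against 11.8% and 13.2%, with SPRY4 and SNAI1, an FGF feedback gene and a cyclic gene, falling from 72.3 ± 1.12 to 6.40 ± 0.829 CPM and from 59.6 ± 1.72 to 5.32 ± 1.32 CPM.

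Of 23 determination front and somite genes tested, 14 were higher and 1 lower in early RA-gastruloids than in primed RUES2-GLR cells, and 16 and 1 by counts per base. MSGN1 and CDX2 had 0 counts in the primed RUES2-GLR libraries and were at least 460-fold and 429-fold higher, while CYP26A1, which degrades RA, fell from 238 ± 33.7 to 12.1 ± 0.694 CPM. At the late stage 10 were higher and 8 lower, against the same 11.8% and 13.2%. TBX6 fell from 371 ± 19.2 to 1.15 ± 0.767 CPM and MSGN1 from 276 ± 7.85 to 0.521 ± 0.0168 CPM, while MEOX1, a somite gene, was at least 279-fold higher. Outside the early group MSGN1 had at most 11 counts per library, and outside the late group MEOX1 had at most 2. The filter kept each gene through the group where it is high. RIPPLY1, the relative of RIPPLY2, had 0 counts in early RA-gastruloids and reached 9.70 ± 0.888 CPM in late ones, where RIPPLY2 was at or below 1 count.

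In mouse, the same lists gave 13 of 18 WNT and FGF targets higher and 1 lower in early gastruloids than in naïve ESCs, against 16.2% and 6.81% of all genes, with Lef1 from 2.05 ± 0.529 to 36.9 ± 0.426 CPM, and against EpiLCs 7 higher and 4 lower, where 11.7% and 9.24% of all genes were. Of 19 front and somite genes tested, 5 were higher and 4 lower than in naïve ESCs, set beside the same 16.2% and 6.81%, with Fgf8, which keeps the tail end unsegmented, at least 60.5-fold higher. From early to late 15 were higher and 3 lower, against 20.1% and 19.1%, among them Meox1, at least 668-fold higher, and Foxc2, from 0.236 ± 0.0852 to 73.8 ± 6.17 CPM. Outside the late group Meox1 had at most 3 counts per library and Foxc2 at most 6. The filter kept both through the late libraries. Ripply1 fell from 4.54 ± 0.569 to 0.547 ± 0.279 CPM. Of 9 other ligands, receptors and fringes tested, 3 were higher and 2 lower from early to late, set beside the same 20.1% and 19.1%, with Dlk1 from 0.994 ± 0.410 to 453 ± 6.07 CPM and Jag2 from 49.9 ± 0.732 to 8.90 ± 0.789 CPM. The 5 somite markers did not move as one in mouse. Besides Meox1 and Foxc2, Pax3 reached 3.10 mean CPM in late gastruloids, Uncx had 0 and 3 counts there, at or under the floor, and Tcf15 went from 31.6 to 12.2 mean CPM.

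The 5 genes whose log2 CPM followed HES7 most closely over the 10 human libraries were LNCDAT, TEF, RSPO3 (which amplifies WNT signalling), XIRP1 and HAS2, with Pearson r of 0.98 to 0.99. Among the members r with HES7 was 0.96 for DLL3, 0.87 for DLL1 and 0.79 for RIPPLY2, against 0.12 for HES1 and 0.15 for NRARP. For MESP2, with 150 counts in all, the nearest named genes were SLC41A1, GNAL, STK32B and RRAGD, and for mouse Mesp2, with 122 counts, Hcn3, Psmb9, Ovol2, Drd2 and Ampd2. These values describe libraries that fall into few groups, the HES7 values turn on the 2 early libraries, and no neighbours are given for mouse Hes7.

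Ways of scaling gave different values for the primed RUES2-GLR libraries, while the 8 early to late calls of the members were the same under each scaling run. Of all genes called from primed RUES2-GLR cells to early RA-gastruloids, 40.5% were higher with TMM, 32.9% with upper quartile scaling and 83.7% when libraries were scaled by counts per base. The last scaling moved the median over all genes by 0.85 log2. On it NOTCH1 (1.24) and NRARP (1.24) were called higher and HES1 (-0.62) fell short of the threshold, while HES7, DLL1, DLL3, HEY1, MESP2 and RIPPLY2 kept their direction and call. From primed H9 to primed RUES2-GLR 58.4% of called genes were higher with TMM, 68.7% with DESeq2 size factors, 71.2% with upper quartile scaling and 10.3% by counts per base, with a shift of -1.01. By counts per base LFNG (1.79), DLL1 (1.43) and HES1 (1.55) were still called higher there and MESP2 lower, and 7 of 10 members were called. No share of all genes called is given for that scaling, so the 7 of 10 is not read against one. From naïve to primed H9 the share went from 53.3% to 69.7%, with a shift of 0.51.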

How the data were processed

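The authors deposited 1 table of whole-number read counts per gene for each species, not normalized. Per the study's methods, polyadenylated RNA was sequenced in either of 2 paired-end configurations, trimmed with Trimmomatic 0.39, aligned by STAR (GRCh38 for human, GRCm39 for mouse) and counted with featureCounts under default settings, which use no strand and leave out reads with several alignments. The annotation release and the configuration of each sample are not given in the sources used here. Human libraries held 3681739 to 38771193 total counts and mouse libraries 6487157 to 20052505, and intervals and floors from counts cover counting error only.

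Identifiers were matched to GENCODE release 44 (44876 of 44910 human genes) and M39 (29486 of 29720 mouse genes). Counts were scaled by TMM, filtered with filterByExpr, which kept 18300 human and 15003 mouse genes, and tested with glmQLFit and glmQLFTest of edgeR 4.0.16 (R 4.3.3) with 1 fit for each species, in which every group had its coefficient, and no covariate. Adjusted p is Benjamini-Hochberg over all genes tested, and a call also needed an absolute log2 fold change above 1. The difference between species was an interaction in 1 fit over 14006 genes matched by symbol. TPM used the exon lengths in the deposited tables and was compared within libraries, and for LFNG, HES1 and HES7 also between groups. A fold against a group at or below 3 counts per library is given as a lower bound. The script was tested on simulated data. DESeq2 1.42.0, other scalings and filters, a replicate block and leaving out each library were run as alternatives.

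All 10 genes were described in both species, and from each pathway list the 2 called genes with the largest rise and the 2 with the largest fall were open to naming. Genes most like HES7 or MESP2 were the 5 with the highest Pearson r of log2 CPM. The members and lists were chosen with earlier results of these data known. With 2 replicates of a stage collected together, p-values measure the spread between these samples. Replicates of a group differed by more than sampling noise (chi-square per degree of freedom of 1.55 or more). Promoter windows were scanned in Python 3.11.15 and aligned globally with Biopython 1.88. Proteome data were not analysed here.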

Additional observations from a re-analysis of the deposited data

Results flagged for a closer look

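The early to late change differed between human RA-gastruloids and mouse gastruloids for 4 of the 8 clock genes tested in both species, by the test of the difference itself (the quasi-likelihood test of edgeR, Benjamini-Hochberg adjusted over all matched genes), where 35.4% of all matched genes differed. Human minus mouse, the difference in log2 fold change was -2.49 for DLL1 (-3.06 in human, -0.42 in mouse), -1.77 for DLL3 (-4.19 and -2.27), -1.10 for HEY1 (1.17 and 2.42) and -2.64 for MESP2. The differences are from the joint fit of all 18 samples and the values in brackets from the separate fit of each species. Filter and scaling differ between these fits, so the bracketed values do not subtract exactly to the differences. In human the late MESP2 level was at the floor, at least 9.40-fold below the early one, so no exact human value is given, and the mouse value was -0.83. The MESP2 difference of -2.64 rests on the same late group at the floor and is therefore not exact either. The MESP2 difference lost its call without late RA replicate 1 (adjusted p = 0.1002) or late mouse replicate 1 (adjusted p = 0.138), and that of HEY1 came to -0.89, under the fold threshold, without late mouse replicate 2. The groups also differ in protocol and hours, which cannot be told apart from species. Groups of 2 libraries were too small to look for single libraries that stand apart.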

How the results depend on the processing

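Of the member values recomputed under an alternative, 695 kept their direction and side of the threshold, 19 lost the call, 12 gained one and 21 changed sign. Requiring at least 10 counts in every sample compared left 3 members called from naïve to primed H9, 3 from primed RUES2-GLR to early RA-gastruloids, 1 from naïve ESCs to EpiLCs and 0 from naïve ESCs to early mouse gastruloids (edgeR), where 4 members were left to test and the largest value was 0.94 (Nrarp, adjusted p = 0.0132). From naïve ESCs to early mouse gastruloids DESeq2 called 2 members, and the adjusted p alone, with no fold threshold, called 8, and 5 from early to late. Scaling by counts per base, chosen after seeing the data, called 7 from primed H9 to primed RUES2-GLR. No share of all genes called is given for any of these alternatives. The counts therefore show how the calls moved and are not read as an excess over all genes. Leaving out 1 library gave 4 to 5, 3 to 4, 5 to 6 and 7 to 8 calls in the human comparisons in order of stage. In mouse it gave 5 to 6 (naïve to EpiLC), 4 to 5 (EpiLC to early), 3 to 4 (naïve to early) and 3 to 4 (early to late), and 3 to 4 for the difference between species.

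Values that changed sign were mostly small or rested on few counts, and the cause was not tested. HEY1 from naïve to primed H9 was -0.010 with DESeq2 and -0.0043 with its size factors in edgeR. LFNG there was 0.31 by counts per base. From primed H9 to primed RUES2-GLR, DLL3 was 0.012 with DESeq2, 0.028 with upper quartile scaling, 0.034 with the filter at 10 counts and -0.33 to 0.17 leaving out a library. Scaling by counts per base, which moved the median over all genes there by -1.01 log2, gave -0.43 for NOTCH1. With TMM it was 0.59 ± 0.11, on 1020 counts or more per library. RIPPLY2 was -0.68 by counts per base, and ranged from -3.89 to 0.67 leaving out a library. From primed RUES2-GLR to early RA-gastruloids LFNG was -0.031 with DESeq2, -0.027 with its size factors, -0.081 with upper quartile scaling, -0.0056 with no filter, -0.056 with the filter at 10 counts, -0.044 with only the 2 groups compared and -0.092 to 0.15 leaving out a library. Leaving out a library also gave -0.23 to 0.58 for Nrarp from EpiLCs to early gastruloids, -1.10 to 0.11 for Lfng from early to late, and species differences of -0.60 to 0.67 for LFNG and -0.30 to 0.039 for NOTCH1.

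The replicate block changed 2 calls, RIPPLY2 to early RA-gastruloids (2.62, adjusted p = 0.0511) and Lfng from naïve ESCs to early gastruloids (0.95, adjusted p = 0.0583), so that 6 and 3 members were called. Same-numbered replicates did not deviate together (correlations of -0.11 to 0.068), so the numbers give no pairing. Mouse Hes7 and Ripply2 were at or under the floor of 3 counts in every library, so no change in them was tested. The cause of these low counts was not tested.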
